A study of Mus musculus with 8 samples.

Results

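Lymphoid tissue inducer (LTi) cells of the small intestinal lamina propria (LP) were compared between 2 libraries labelled Tcf7-KO and 2 control (Ctrl) libraries, across the 8767 genes, of 27179 measured, that had at least 1 RPKM in at least 2 of these 4 libraries. RPKM is the number of reads per kilobase of gene, scaled to the reads of the library. The Ctrl mice were Tcf7+/+. The mice labelled Tcf7-KO carried floxed Tcf7 alleles (Tcf7fl/fl) and a lineage-directed Cre recombinase, which deletes the floxed part in the cells that express it. All mice were of the C57BL/6 strain, and the labels name no Cre for the controls, no treatment, no age and no sex. The cells were sorted as lineage-negative, CD127+, CCR6+ and negative for KLRG1, NK1.1 and NKp46. The series also holds 4 libraries of Peyer's patch (PP) LTi cells with the same labels, so that 8 libraries fall into 4 groups of 2.

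LTi cells belong to the group 3 innate lymphoid cells. They start the formation of lymph nodes and Peyer's patches through lymphotoxin and TNF family ligands, and in the adult gut release IL-22 and IL-17, which act on the epithelium. Tcf7 encodes TCF-1, a DNA-binding partner of β-catenin in the Wnt pathway that also acts without it in lymphocyte development. The comparison asks which transcripts of LP LTi cells differ with the Tcf7 genotype, as far as the labels give it.

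The 4 LP libraries held 38.5 and 39.2 M reads (Ctrl) and 42.1 and 39.3 M reads (labelled Tcf7-KO), where the first value of each pair is replicate 1 and the next is replicate 2, here and in what follows. Across the 8767 genes, Pearson correlations of log2(RPKM + 1) were 0.721 between the Ctrl libraries, 0.63 between the labelled Tcf7-KO libraries and 0.648 to 0.683 between groups. Whether the 2 libraries of a group are from different mice is not in the labels. All p-values below therefore rest on the spread among these libraries, which may be technical in part. Labelled Tcf7-KO replicate 1 stood apart in its sex-linked transcripts. The female-specific Xist stood at 60.3 RPKM in that library and at 0.0711 to 0.0866 RPKM in the other 3. The Y-linked Ddx3y stood at 0.312 RPKM there against 58.9 to 71.3 RPKM. The 2 labelled Tcf7-KO LP libraries are thus not repeats of the same RNA. Replicate 1 has a female pattern, and replicate 2, like both Ctrl LP libraries, a male pattern. The part of sex in the differences below was not tested. Mitochondrially encoded genes took 5.06% of all RPKM in labelled Tcf7-KO replicate 1 and 3.25% to 3.67% in the others. Immunoglobulin genes took 12.1% and 17.3% of RPKM in the Ctrl libraries and 10.4% and 11.7% in those labelled Tcf7-KO.

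The genes of the sort were checked against its markers. Il7r, which encodes CD127, stood at 385 and 369 RPKM in Ctrl and at 206 and 274 RPKM in the libraries labelled Tcf7-KO. Ccr6, a chemokine receptor of LTi cells, stood at 325 and 225 RPKM and at 89.3 and 165 RPKM. Both were present in every library and, with no overlap between the groups, lower in those labelled Tcf7-KO, but neither difference passed the test (log2 fold change -0.67 ± 0.34 for Il7r and -1.15 ± 0.44 for Ccr6, SE, limma adjusted p = 0.865 and 0.662). Leaving out 1 library at a time gave -1.59 to -0.71 for Ccr6. Of the gated-out molecules, Ncr1 (NKp46) was at 0 in all 4 libraries and Klrb1c (NK1.1) at 0.135 to 0.178 RPKM. Klrg1 stood at 10.7 RPKM in Ctrl replicate 1 and at 0.0187 RPKM or less in the other 3. Of the 20 LTi markers, all 20 reached 1 RPKM in each Ctrl library and 19 in each labelled Tcf7-KO library.

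The targeted gene, Tcf7 (Entrez Gene 21414, chromosome 11), was not lower in the libraries labelled Tcf7-KO beyond the spread between replicates. It stood at 229 and 246 RPKM in Ctrl and at 237 and 215 RPKM in the libraries labelled Tcf7-KO. The groups overlapped, and the log2 fold change (labelled Tcf7-KO minus Ctrl, fitted on log2(RPKM + 1)) was -0.07 ± 0.47 (SE, limma adjusted p = 0.999). This value turned to 0.145 after median-of-ratios rescaling between libraries. A value per gene covers the whole transcript and does not separate deleted exons from the rest, so the genotype rests on the label, and "labelled Tcf7-KO" is used throughout. Lef1, the other TCF/LEF factor known from innate lymphoid cells, stood at 0.222 and 4.48 RPKM in Ctrl and at 0.145 and 17.2 RPKM in labelled Tcf7-KO, with the 2 libraries of each group far apart.

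Of 8767 genes, 3 passed the test in limma, with a p adjusted by Benjamini and Hochberg's method under 0.05 (0.0342%), all lower in the libraries labelled Tcf7-KO and all variable (V) segments of immunoglobulin genes, which are joined to other segments in B lineage cells and code for the antigen-binding part of antibodies. No gene passed as higher (0.0%). Ighv5-17, a heavy chain V segment, fell from 1444 and 1611 RPKM to 3.96 and 3.29 RPKM, a log2 fold change of -8.37 ± 0.74 (SE, limma adjusted p = 0.0205). Ighv8-12, another heavy chain V segment, fell from 2785 and 1449 RPKM to 6.47 and 4.98 RPKM (-8.23 ± 0.70, limma adjusted p = 0.0205). Igkv12-44, a kappa light chain V segment, fell from 4675 and 2228 RPKM to 14.9 and 40.0 RPKM (-6.98 ± 0.53, limma adjusted p = 0.0205, -7.67 to -6.30 when 1 library was left out). The groups lay far apart for all 3, with 16328 and 18568 reads of Ighv5-17 in Ctrl and 49 and 38 in labelled Tcf7-KO. None of the 3 passed without labelled Tcf7-KO LP replicate 1, without either Ctrl LP library or without either PP library labelled Tcf7-KO, and without labelled Tcf7-KO LP replicate 2 only Igkv12-44 of the 3 did. The count of 3 was 0 with voom on whole reads recovered from the values (588 genes at an unadjusted p under 0.05) and 56 with no filter on low values.

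The V exons of the 3 genes are shown because each has close relatives with which reads could be shared. The exons come from GENCODE M21 on GRCm38, 5′ to 3′ on the gene's strand, with capitals at bases that differ from the closest relative. That relative was sought among the measured V genes of the same kind (heavy chain or kappa) in a set of 216 V genes. Ighv5-17 lies at chr12:113859149-113859448 (minus strand, the last 300 bases of an exon of 305) and has Ighv5-15 as its closest relative (92.1% identical). Ighv8-12 lies at chr12:115647945-115648244 (minus strand, the last 300 of 312 bases) and is closest to Ighv8-9 (94.9%). Igkv12-44 lies at chr6:69814631-69814928 (minus strand, all 298 bases) and is closest to Igkv12-41 (95.6%).
Ighv5-17: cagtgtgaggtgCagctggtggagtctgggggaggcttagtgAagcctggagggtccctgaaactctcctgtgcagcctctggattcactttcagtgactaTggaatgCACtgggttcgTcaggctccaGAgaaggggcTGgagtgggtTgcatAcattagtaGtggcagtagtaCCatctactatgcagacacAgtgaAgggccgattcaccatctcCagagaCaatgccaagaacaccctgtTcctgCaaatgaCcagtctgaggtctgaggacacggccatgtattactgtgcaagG
Ighv8-12: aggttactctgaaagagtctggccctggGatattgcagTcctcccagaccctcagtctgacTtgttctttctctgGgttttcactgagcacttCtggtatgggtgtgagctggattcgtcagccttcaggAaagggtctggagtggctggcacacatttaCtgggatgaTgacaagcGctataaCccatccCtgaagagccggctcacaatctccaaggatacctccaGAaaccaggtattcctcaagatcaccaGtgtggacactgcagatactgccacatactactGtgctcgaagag
Igkv12-44: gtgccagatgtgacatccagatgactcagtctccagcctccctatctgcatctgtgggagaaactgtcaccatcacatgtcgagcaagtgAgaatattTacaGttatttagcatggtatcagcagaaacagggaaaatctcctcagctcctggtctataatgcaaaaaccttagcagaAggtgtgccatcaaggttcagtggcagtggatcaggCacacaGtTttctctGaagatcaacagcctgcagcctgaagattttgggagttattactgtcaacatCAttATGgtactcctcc
The capitals number 24 for Ighv5-17, 15 for Ighv8-12 and 13 for Igkv12-44. The closest relatives were low in every LP library: Ighv5-15 at 3.36 and 1.39 RPKM in Ctrl and 0 in both labelled Tcf7-KO libraries, Ighv8-9 at 0.172 and 1.10 RPKM and 0 in both, and Igkv12-41 at 18.4 and 12.3 RPKM and at 0.274 and 0.440 RPKM. A further relative of Ighv5-17, Ighv5-4 (88.5% identical, 35 of 305 bases differing), had the same pattern at 1499 and 2263 RPKM in Ctrl and 5.49 and 4.32 RPKM in labelled Tcf7-KO and did not pass (log2 fold change -8.29 ± 1.05, SE, limma adjusted p = 0.158).

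Which V segments were abundant differed from library to library within both groups. Of 226 V segments in the table, 59 reached 100 RPKM in at least 1 LP library: 40 of them in exactly 1 of the 4, 11 in 2, 6 in 3 and 2 in all 4. Each library had 18, 30, 20 and 20 such segments (Ctrl replicates 1 and 2, then labelled Tcf7-KO), and the 5 most abundant took 54.4%, 43.4%, 56.8% and 46.7% of the V segment RPKM. The leading segment was Iglv1 in Ctrl replicate 1 (5262 RPKM) and in labelled Tcf7-KO replicate 2 (4056 RPKM), Igkv6-15 in Ctrl replicate 2 (7545 RPKM) and Igkv8-21 in labelled Tcf7-KO replicate 1 (5133 RPKM). Of the 59, 6 were at 100 RPKM in both Ctrl libraries and in neither labelled Tcf7-KO library, and 1 was the other way round. That segment, Ighv1-15, stood at 3.80 and 4.69 RPKM in Ctrl and at 2570 and 993 RPKM in labelled Tcf7-KO, and did not pass (8.26 ± 1.12, SE, limma adjusted p = 0.158).

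**Figure D1:**
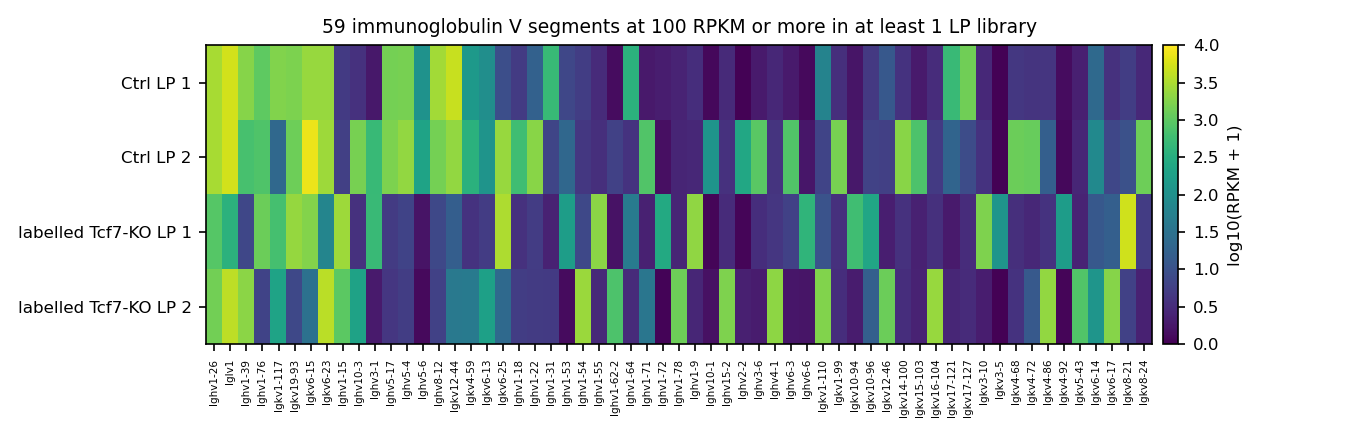
Heat map of log10(RPKM + 1) for the 59 immunoglobulin V segments (columns) that reached 100 RPKM in at least 1 of the 4 LP libraries (rows), ordered by the number of libraries in which they did. Each library had its own set: 40 of the 59 reached 100 RPKM in exactly 1 library.

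None of the genes for the constant parts of antibodies passed the test. Igkc, the kappa constant region, stood at 14590 and 23300 RPKM in Ctrl and at 16050 and 14320 RPKM in labelled Tcf7-KO. Igha, the constant region of IgA, stood at 8544 and 13350 RPKM and at 7895 and 9433 RPKM, and the groups of both genes overlapped. Jchain, which links IgA into dimers, stood at 726 and 1180 RPKM and at 589 and 679 RPKM, with no overlap. Iglc1, a lambda constant region, stood at 4500 and 4744 RPKM and at 63.8 and 3600 RPKM, also with no overlap and with labelled Tcf7-KO replicate 1 far below the other 3 (-3.26 ± 1.53, SE, limma adjusted p = 0.843). Summed over the 25 B and plasma cell markers, of which 16 were tested, RPKM was 29220 and 43840 in Ctrl and 25610 and 28940 in labelled Tcf7-KO. Pax5 was at 0 in all 4 libraries and Ms4a1 at 0.0496 to 0.0693 RPKM, while the plasma cell gene Xbp1 stood at 390 to 582 RPKM. The part of B lineage transcripts in the 3 passing differences was not tested. In bulk samples, fewer cells of a type and less RNA per cell cannot be told apart.

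**Figure D2:**
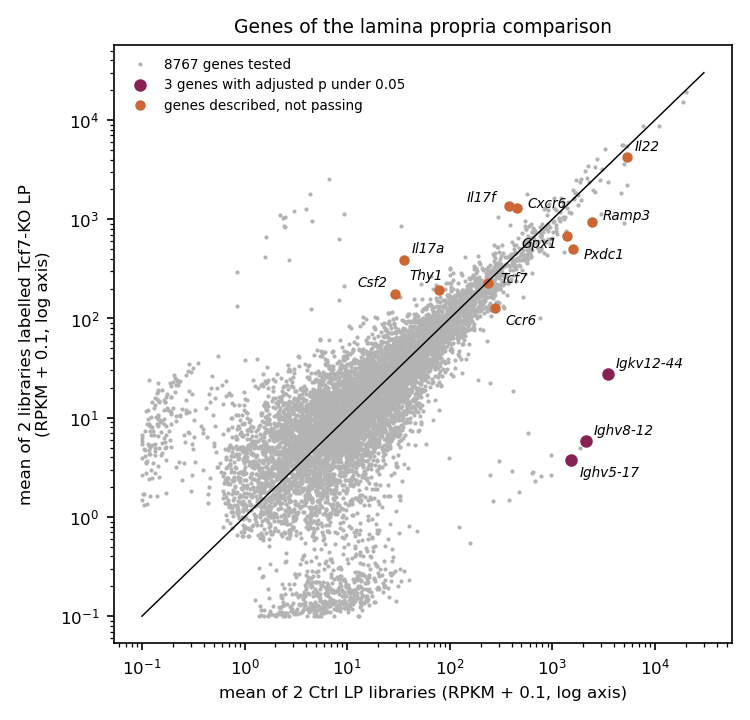
Mean RPKM of each of the 8767 tested genes in the 2 Ctrl LP libraries (x axis) and the 2 libraries labelled Tcf7-KO (y axis), on log axes with 0.1 RPKM added; the line marks equal levels. The 3 passing genes (purple) are V segments far below the line, and Il17a, Il17f and Csf2 (orange, not passing) lie above it.

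No gene other than these 3 passed. Of all 8767 genes, V segments included, 585 had an unadjusted p under 0.05 (6.67%), of which 223 were higher (2.54%) and 362 lower (4.13%). In 1381 genes (15.8%) both labelled Tcf7-KO libraries lay above both Ctrl libraries, and in 1760 (20.1%) both lay below. Together these are 35.8% of the genes, and these shares are the background for the counts of genes whose groups do not overlap. The median log2 fold change of all genes was -0.07, and median-of-ratios rescaling moved it to 0.11, so list medians are given below relative to the median of all genes.

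Among cytokine genes, the IL-17 genes and Csf2 were higher in both libraries labelled Tcf7-KO, without passing the test. Il17a, a cytokine that drives neutrophil recruitment and epithelial defence, stood at 15.2 and 55.6 RPKM in Ctrl and at 437 and 346.5 RPKM in labelled Tcf7-KO. The groups did not overlap, the log2 fold change was 3.69 ± 0.77 (SE), and the limma p of 0.00172 became 0.205 when adjusted. Leaving out 1 library at a time gave 2.78 to 4.59. Il17f, its close homologue and neighbour on chromosome 1, stood at 455.5 and 296 RPKM and at 1159 and 1572 RPKM (1.88 ± 0.55, limma adjusted p = 0.421). Csf2, which encodes the myeloid growth factor GM-CSF, stood at 33.6 and 24.5 RPKM and at 234 and 122 RPKM (2.52 ± 0.96, limma adjusted p = 0.654). The most abundant cytokine transcript was Il22, which encodes a cytokine that induces epithelial repair and antimicrobial peptides: it stood at 5253 and 5318 RPKM in Ctrl and at 4422 and 4047 RPKM in labelled Tcf7-KO (-0.32 ± 0.23, limma adjusted p = 0.990). The remaining 8 of the 12 listed cytokines, Ifng, Il2, Il4, Il5, Il9, Il10, Il13 and Il21, were at 0.0751 RPKM or less in all 4 libraries. The genotype effect on Il17a did not differ between LP and PP beyond the spread (LP minus PP -1.77, limma adjusted p = 0.749). Without labelled Tcf7-KO replicate 1, the library that stood apart, the log2 fold changes were 3.52 for Il17a, 2.10 for Il17f and 2.05 for Csf2. T cells can also make IL-17. The 18 T cell markers summed to 734 and 593 RPKM in Ctrl and to 532 and 808 RPKM in labelled Tcf7-KO. Cd3e stood at 14.1 and 0.195 RPKM and at 1.94 and 14.3 RPKM, and Foxp3 was at 0 in all 4. Of the 10 tested, 0 lay higher and 2 lower without overlap, against 15.8% and 20.1% of all genes. The 2 were Cd3d, at 12.8 and 10.5 RPKM and at 0.107 and 0.0574 RPKM, and Trac, at 1.12 and 24.6 RPKM and at 0.384 and 0.768 RPKM. Both passed the filter of 1 RPKM only through Ctrl, so these 2 lend no support to a difference. Trbc1 and Lck overlapped. The sort was lineage-negative, and the part of T cells in the IL-17 values was not tested.

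The promoters of the IL-17 pair are shown because both genes were higher in the libraries labelled Tcf7-KO and because TCF-1 binds a short known core. The 250 bases before each start site come from RefSeq on GRCm38.p6, 5′ to 3′ on the gene's strand, at chr1:20730655-20730904 (plus strand) for Il17a and chr1:20784271-20784520 (minus strand) for Il17f. The letters CTTTGA (the core of TCF/LEF elements) were searched on both strands, and capitals mark a match.
Il17a: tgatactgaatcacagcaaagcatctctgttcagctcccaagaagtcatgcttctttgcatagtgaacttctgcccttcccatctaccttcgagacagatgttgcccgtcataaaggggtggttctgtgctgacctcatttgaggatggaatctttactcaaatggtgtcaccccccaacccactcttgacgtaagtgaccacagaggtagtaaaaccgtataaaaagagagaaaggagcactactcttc
Il17f: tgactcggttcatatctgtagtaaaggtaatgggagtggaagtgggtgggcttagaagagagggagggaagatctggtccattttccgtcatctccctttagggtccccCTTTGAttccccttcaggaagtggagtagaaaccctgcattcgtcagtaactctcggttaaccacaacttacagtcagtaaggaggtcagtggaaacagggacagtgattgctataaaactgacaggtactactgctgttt
Il17f holds CTTTGA at -141 to -136 from the start site, and Il17a holds no match in this window. Of 32851 promoters of the same length, 13.8% hold CTTTGA, so a match is a description of these letters and not a binding site.

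None of the ligands through which LTi cells organise lymphoid tissue passed the test. Ltb, which encodes the membrane-bound lymphotoxin β, stood at 578 and 505 RPKM in Ctrl and at 557 and 262 RPKM in labelled Tcf7-KO. Lta, its soluble partner, stood at 51.3 and 14.6 RPKM and at 36.9 and 3.57 RPKM, and the groups overlapped for both genes. Tnfsf11, which encodes RANKL, a ligand that activates stromal organiser cells, was lower in both labelled Tcf7-KO libraries at 546 and 643 RPKM against 931 and 801 RPKM (log2 fold change -0.54 ± 0.54, SE, limma adjusted p = 0.999). Tnf stood at 10.02 and 24.6 RPKM in Ctrl and at 24.9 and 30.3 RPKM in labelled Tcf7-KO. Tnfsf4, which encodes OX40L, a costimulator of T cells, stood at 13.9 and 10.99 RPKM and at 0.103 and 0.0158 RPKM (-3.66 ± 1.33, limma adjusted p = 0.618). Tnfsf9, which encodes the ligand of 4-1BB, had the opposite pattern at 0.169 and 0.104 RPKM and at 29.5 and 17.6 RPKM (4.39 ± 1.80, limma adjusted p = 0.721). Of the 9 tested lymphotoxin and TNF superfamily ligands, 2 lay higher (22.2%) and 3 lower (33.3%) without overlap, against 15.8% and 20.1% of all genes. Among these, Tnfsf4 and Tnfsf9 passed the filter only through the group where they were high. Their p-values and lack of overlap therefore lend no support to a difference. The median of the 9 lay 0.43 below that of all genes.

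For 20 tested transcription factors of the lineage, the share without overlap was near that of all genes. Id2, the inhibitor of E proteins that all innate lymphoid cells need, stood at 769 and 901 RPKM in Ctrl and at 1014 and 1506 RPKM in labelled Tcf7-KO (log2 fold change 0.57 ± 0.24, SE, limma adjusted p = 0.732, 0.285 to 0.855 when 1 library was left out). Stat3, which transmits IL-23 signals, stood at 92.7 and 91.1 RPKM and at 165 and 287 RPKM (1.24 ± 0.58, limma adjusted p = 0.843). In both genes the labelled Tcf7-KO libraries lay above the controls. Tbx21, which encodes T-bet, the factor of type 1 lymphocytes, stood at 9.85 and 11.3 RPKM in Ctrl and at 0.0279 and 2.68 RPKM in labelled Tcf7-KO (-2.57 ± 0.81, limma adjusted p = 0.487), and leaving out 1 library at a time gave -3.49 to -1.65. Ahr, the aryl hydrocarbon receptor that maintains gut innate lymphoid cells, stood at 5.25 and 17.98 RPKM and at 4.26 and 3.95 RPKM. Gata3, needed for early innate lymphoid development, stood at 24.8 and 37.0 RPKM and at 24.2 and 43.7 RPKM, and Tox, a factor of the common precursor, at 79.1 and 53.9 RPKM and at 33.9 and 72.8 RPKM. Both overlapped between the groups. No factor passed, and 3 lay higher (15%) and 5 lower (25%) without overlap, against 15.8% and 20.1% of all genes. The median of the 20 was -0.37, or 0.30 below that of all genes. Without labelled Tcf7-KO replicate 1 it was 0.089, beside 0.07 for all genes.

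Among surface receptors, values differed in both directions without passing. Cxcr6, a chemokine receptor of gut-resident lymphocytes, stood at 518 and 383 RPKM in Ctrl and at 884 and 1736 RPKM in labelled Tcf7-KO (log2 fold change 1.47 ± 0.33, SE, limma adjusted p = 0.244). Cxcr3, a receptor for interferon-induced chemokines, stood at 42.5 and 25.8 RPKM and at 4.25 and 0.111 RPKM (-3.82 ± 1.02, limma adjusted p = 0.362). Cxcr5, which guides cells to B cell follicles, overlapped at 188 and 183 RPKM and at 185 and 133 RPKM. Of the 17 trafficking receptors and integrins tested, 4 lay higher (23.5%) and 7 lower (41.2%) without overlap, against 15.8% and 20.1% of all genes. Thy1, a surface marker of innate lymphoid and T cells, stood at 63.9 and 92.4 RPKM and at 186.5 and 200.2 RPKM (1.32 ± 0.33, limma adjusted p = 0.320), and Cd7, a marker of early lymphoid and innate lymphoid cells, at 252 and 238.5 RPKM and at 116 and 126 RPKM (-1.01 ± 0.23, limma adjusted p = 0.257). Cd7 was also lower in PP labelled Tcf7-KO (mean 1607 against 467 RPKM), and the 2 effects did not differ by the test (LP minus PP 0.77, limma adjusted p = 0.572).

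None of the receptors for the cytokines that sustain or activate LTi cells passed the test. Kit, the stem cell factor receptor, stood at 221 and 229 RPKM in Ctrl and at 117.5 and 253 RPKM in labelled Tcf7-KO. Il23r, the receptor subunit for IL-23, stood at 126 and 145 RPKM and at 54.8 and 158 RPKM, and Il1r1, the IL-1 receptor, at 78.2 and 25.9 RPKM and at 54.0 and 63.2 RPKM. In Kit and Il23r labelled Tcf7-KO replicate 1 lay below and replicate 2 above both controls. Ifngr1, a subunit of the interferon γ receptor, stood at 934 and 1069 RPKM and at 601 and 697 RPKM (log2 fold change -0.63 ± 0.26, SE, limma adjusted p = 0.721). Il2rg, the common γ chain, lay the other way at 487 and 623 RPKM and at 702 and 890 RPKM (0.52 ± 0.22, limma adjusted p = 0.738). Of 24 receptors tested, 3 lay higher (12.5%) and 4 lower (16.7%) without overlap, near the 15.8% and 20.1% of all genes.

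**Figure D3:**
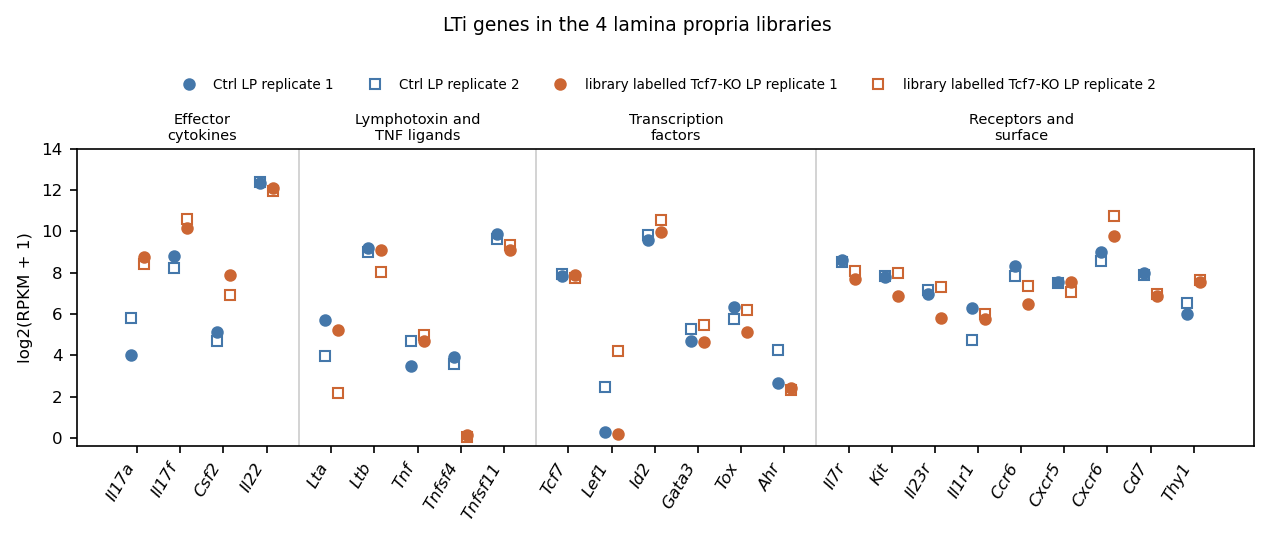
Level, as log2(RPKM + 1), of 24 LTi genes in each of the 4 LP libraries; blue marks are Ctrl and orange marks are libraries labelled Tcf7-KO, filled for replicate 1 and open for replicate 2. Il17a, Il17f and Csf2 lie higher and Ccr6 and Cd7 lower in both labelled Tcf7-KO libraries, while the marks of Tcf7, Kit and Gata3 overlap. Tnfsf4 also lies lower but passed the filter of 1 RPKM only through Ctrl.

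The steadiest transcripts were those at 10 RPKM or more in all 4 libraries, 2869 genes, of which 505 lay higher (17.6%) and 581 lower (20.3%) without overlap. Immunoglobulin and T cell receptor segments, predicted genes and genes with no symbol were then set aside, which left 2665, and the 12 genes per direction with the smallest p among those without overlap were taken. On the lower side, Pxdc1 had the smallest p of these, at 1443 and 1768 RPKM in Ctrl and 515 and 492 RPKM in labelled Tcf7-KO (log2 fold change -1.67 ± 0.29, SE, limma adjusted p = 0.158). Gpx1, a selenoenzyme that removes hydrogen peroxide, stood at 1239 and 1566 RPKM and at 632.5 and 735 RPKM (-1.03 ± 0.20, limma adjusted p = 0.197). Ramp3, a partner protein of the calcitonin receptor family that makes it respond to adrenomedullin, stood at 2441 and 2432 RPKM and at 1074 and 816 RPKM (-1.38 ± 0.40, limma adjusted p = 0.419). Spry2, an inhibitor of receptor tyrosine kinase signals, stood at 274 and 183 RPKM and at 64.2 and 54.4 RPKM (-1.91). Car2, a carbonic anhydrase, stood at 708 and 549 RPKM and at 289 and 288 RPKM (-1.11). The other genes on this side were Cd7, Fos, Gimap4 (-1.78), Actb (-0.47), Puf60 (-1.46), Ss18 (-2.19) and Ccnl1 (-1.07), with adjusted p up to 0.493.

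On the higher side, the 12 genes included Il17a, Il17f, Cxcr6 and Thy1. Serpine2, a secreted protease inhibitor, stood at 31.2 and 18.3 RPKM in Ctrl and at 82.8 and 95.3 RPKM in labelled Tcf7-KO (log2 fold change 1.85 ± 0.37, SE, limma adjusted p = 0.200). Psmb10, a catalytic subunit of the immunoproteasome, stood at 53.5 and 83.6 RPKM and at 194 and 198 RPKM (1.54 ± 0.35, limma adjusted p = 0.253). Cxxc5, a zinc finger protein that is known to restrain Wnt signalling, stood at 14.8 and 15.6 RPKM and at 69.3 and 130 RPKM (2.57 ± 0.54, limma adjusted p = 0.205). Cd81, a tetraspanin, stood at 198 RPKM in each Ctrl library and at 331 and 385 RPKM in labelled Tcf7-KO. The mitochondrial ribosomal protein gene Mrps18c (2.39) and the vesicle transport gene Trappc1 (1.87) completed the nuclear genes on this side. Serpine2 and Gpx1 also lay in the same direction in PP, at means of 309 and 1046 RPKM for Serpine2 and 1257 and 655 RPKM for Gpx1 (Ctrl, then labelled Tcf7-KO). Pxdc1 and Fos lay the other way there, at means of 113 and 233 RPKM for Pxdc1 (LP minus PP -2.69, limma adjusted p = 0.106) and 1305 and 1881 RPKM for Fos (-1.35, limma adjusted p = 0.2504).

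A further set of genes, with the same classes set aside, was close to absent in 1 group: 145 genes averaged 10 RPKM or more in Ctrl and were under 1 RPKM in both labelled Tcf7-KO libraries, and 67 had the reverse pattern. Mrpl34, a mitochondrial ribosomal protein gene, had the smallest p of this set, at 62.9 and 32.5 RPKM in Ctrl and 0.625 and 0.630 RPKM in labelled Tcf7-KO, but stood at means of 194 and 97.5 RPKM in PP. Cyp20a1, a cytochrome P450 gene, stood at 34.6 and 25.7 RPKM and at 0.0317 and 0.0508 RPKM, which are 2 and 3 reads. App, the amyloid precursor protein gene, stood at 14.4 and 15.8 RPKM and at 0.0637 and 0.0303 RPKM. In the other direction Gpn2, a GTPase gene, stood at 0.0575 and 0.0564 RPKM in Ctrl, 3 reads each, and at 19.3 and 18.6 RPKM in labelled Tcf7-KO. Tmem171, a membrane protein gene, stood at 0.0675 and 0.0221 RPKM and at 20.9 and 16.2 RPKM. By the same rule Tmem156, Macrod1, Mgmt, Qpct and Ndrg1 were taken as lower and Ndrg2, Tmprss2, Ypel4, Knstrn, Kpna3 and Pgp as higher. Adjusted p values of all 16 were 0.158 to 0.197. These genes were picked for this pattern and pass the filter only through the group where they are high. Both libraries of that group are therefore at 1 RPKM or more by the rule. Their p-values and their lack of overlap lend no support to a difference, and the same holds for Tnfsf4, Tnfsf9, Znrf3, Cd3d and Trac. The same kind of gap was common between replicates: 631 genes (7.20%) stood at 10 RPKM or more in one Ctrl library and under 1 in the other, and 1113 (12.7%) did so in the libraries labelled Tcf7-KO.

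The gap between replicates depended on the level of the gene. At a mean of 3 to 10 RPKM the median absolute difference in log2(RPKM + 1) was 1.28 between the Ctrl libraries, 1.64 between those labelled Tcf7-KO and 0.93 between the group means. From 30 to 100 RPKM these values were 0.54, 0.72 and 0.52, and at 1000 RPKM or more, where Il22 lies, 0.13, 0.43 and 0.34. The median SE of a log2 fold change was 1.20 over all genes and 0.72 over the 2869 genes at 10 RPKM or more in all 4 libraries.

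**Figure D4:**
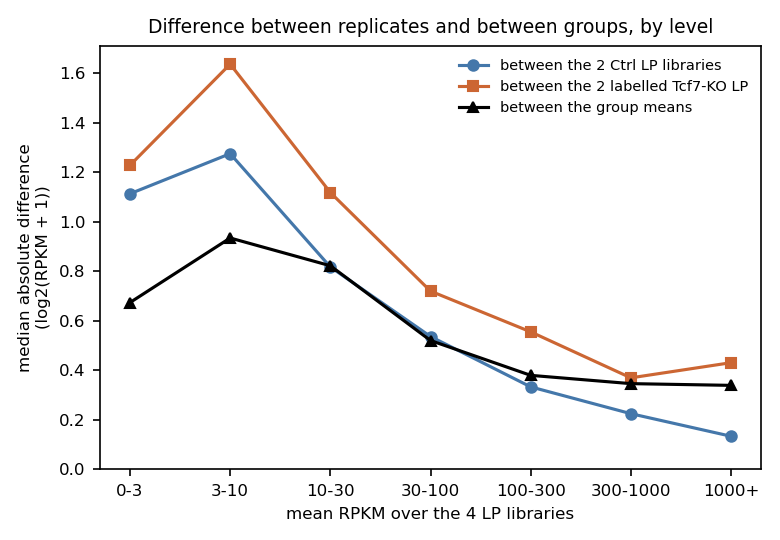
Median absolute difference in log2(RPKM + 1), by mean RPKM over the 4 LP libraries, between the 2 Ctrl libraries (blue circles), between the 2 libraries labelled Tcf7-KO (orange squares) and between the group means (black triangles). All 3 are smaller above 30 RPKM than at 3 to 10 RPKM, and the labelled Tcf7-KO pair differs more than the Ctrl pair at every level.

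Immediate early genes, which code for AP-1 subunits and other fast-induced factors, lay more often lower than higher. Of 29 tested, 11 lay lower and 2 higher without overlap, against 20.1% and 15.8% of all genes, and none passed. Fos stood at 1467 and 1222 RPKM in Ctrl and at 650 and 869 RPKM in labelled Tcf7-KO (log2 fold change -0.83 ± 0.21, SE, limma adjusted p = 0.320). Gem, a small GTPase gene, stood at 2644 and 2545 RPKM and at 1965 and 1827 RPKM, and Fosl1 at 12.1 and 10.2 RPKM and at 0.0557 and 2.42 RPKM. Klf6 lay the other way at 93.3 and 93.2 RPKM and at 175 and 170 RPKM. Junb, the most abundant member, overlapped at 8075 and 7367 RPKM and at 9650 and 7624 RPKM. The list median of -0.20 turned to 0.02 after median-of-ratios rescaling and lay 0.13 below that of all genes. It was -0.325 without labelled Tcf7-KO replicate 1, beside 0.07 for all genes, but -0.072 without replicate 2, above the -0.13 of all genes.

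The medians of the nuclear genes of the ribosome and of the respiratory chain lay below that of all genes in the 4 libraries together, each with 1 library whose omission ended this, and that of the mitochondrially encoded genes lay above it. Of 84 cytosolic ribosomal protein genes, 34 lay lower (40.5%) and 5 higher (5.95%) without overlap, against 20.1% and 15.8% of all genes. Of the 84, 67 had a negative log2 fold change (52.8% of all genes did), and none passed. Rpl13a stood at 594 and 525 RPKM in Ctrl and at 391 and 373 RPKM in labelled Tcf7-KO, and Rpl8 at 750 and 715 RPKM and at 604 and 433 RPKM. The ribosomal median was -0.32, or 0.25 below that of all genes, and -0.10 after median-of-ratios rescaling. It was -0.53 without labelled Tcf7-KO replicate 1, beside 0.07 for all genes, and -0.12 without replicate 2, beside -0.13 for all genes. Of 91 nuclear genes of the respiratory chain, 20 lay lower without overlap (22.0%, near the 20.1% of all genes) and 6 higher (6.59%, against 15.8%). Their median of -0.21 turned to 0.01 after that rescaling. Without Ctrl replicate 2 it was -0.089, above the -0.17 of all genes. Ndufb5, a complex I subunit, stood at 98.8 and 87.9 RPKM and at 20.4 and 41.4 RPKM.

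Of the 15 mitochondrially encoded genes, 14 had a positive log2 fold change (47.2% of all genes did), and none passed in LP. Without overlap, 8 lay higher (53.3%) and 0 lower, against 15.8% and 20.1% of all genes. mt-Atp8, an ATP synthase subunit, stood at 2691 and 2789 RPKM in Ctrl and at 4265 and 3869 RPKM in labelled Tcf7-KO (0.57 ± 0.13, SE, limma adjusted p = 0.264). mt-Nd1, a complex I subunit, stood at 2114 and 2033 RPKM and at 3407 and 2722 RPKM (0.56 ± 0.14, limma adjusted p = 0.312). The ribosomal RNA mt-Rnr2 overlapped, at 4828 and 4779 RPKM and at 7313 and 3782 RPKM. The list median was 0.31 in LP, 0.38 above that of all genes, and 1.996 in PP. Without labelled Tcf7-KO replicate 1, the library with the highest mitochondrial share, the LP median was 0.13, beside 0.07 for all genes. For mt-Cytb, of complex III, the LP and PP effects differed by the test, with an LP minus PP value of -1.64 (limma adjusted p = 0.0478): it stood at 2473 and 2728 RPKM and at 3508 and 3150 RPKM in LP, and at means of 3238 and 12910 RPKM in PP.

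The genotype effect differed between LP and PP for 3 genes (0.0342%): mt-Cytb and 2 immunoglobulin segments. Ighv1-26 stood at 3013 and 3005 RPKM in Ctrl LP and at 868 and 1410 RPKM in labelled Tcf7-KO LP, against means of 1692 and 10.4 RPKM in PP (LP minus PP 5.77, limma adjusted p = 0.0121). Igkj4, a short kappa joining segment, stood at 528 and 517 RPKM and at 172.5 and 154 RPKM in LP, against means of 4.99 and 239 RPKM in PP (-7.01, limma adjusted p = 0.0121). None of the cytokine, receptor and transcription factor genes described above was among the 3. This count was 0 with voom on recovered reads, 12 with a pseudocount of 5 and 36 with no filter on low values. Of the passing LP genes, Igkv12-44 was also low in PP labelled Tcf7-KO, at means of 2704 and 12.7 RPKM, while Ighv5-17 and Ighv8-12 stood at means of 3.24 to 4.90 RPKM in both PP groups.

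The remaining pathway lists had medians from 0.03 below to 0.41 above that of all genes, and no member of any of them passed. Leaving out 1 LP library put the medians of the Wnt, BCL2 family, cell cycle, glycolysis and MHC class II lists on the other side of that of all genes. The counts without overlap in these lists stand beside 15.8% higher and 20.1% lower of all genes. In the Wnt and TCF/LEF pathway 18 of 38 genes were tested, with 4 higher and 4 lower without overlap (22.2% each). Znrf3, which encodes a ubiquitin ligase that removes Wnt receptors, had the smallest p of the list (0.0281 unadjusted), at 3.25 and 6.72 RPKM in Ctrl and 0.0151 and 0.0444 RPKM in labelled Tcf7-KO (log2 fold change -2.48 ± 0.91, SE, limma adjusted p = 0.624). Ctnnb1, which encodes β-catenin, stood at 52.5 and 59.1 RPKM in Ctrl and at 25.5 and 27.7 RPKM in labelled Tcf7-KO. The Wnt target Axin2 stood at 0.0244 and 0.311 RPKM and at 8.35 and 0.0179 RPKM, too low in 3 of the 4 libraries for the test, and Ccnd2 at 30.7 and 25.2 RPKM and at 38.8 and 46.7 RPKM. Of 37 proteasome subunits, 10 lay higher and 4 lower; besides Psmb10, the immunoproteasome subunit Psmb9 stood at 32.8 and 3.92 RPKM and at 118 and 47.4 RPKM. Of 23 NF-kB pathway genes 6 lay higher and 2 lower, with Nfkb1, the p105 and p50 subunit, at 52.3 and 42.2 RPKM and at 93.2 and 129 RPKM. Of 19 heat shock chaperones 6 lay higher and 4 lower, with Hspa1a at 10.7 and 17.8 RPKM and at 168 and 40.8 RPKM. The list of MHC class II and costimulation genes, which serve antigen presentation, had 2 higher and 3 lower of 10. The 3 lower were MHC class II genes: H2-Oa stood at 77.7 and 80.3 RPKM and at 23.1 and 0.751 RPKM, H2-Aa at 549 and 544 RPKM and at 200 and 356 RPKM, and H2-Ab1 at 382 and 283 RPKM and at 33.7 and 233.5 RPKM. Other class II genes overlapped: H2-Eb1 stood at 161.5 and 90.9 RPKM and at 92.7 and 172.5 RPKM. H2-DMa stood at 55.0 and 16.5 RPKM and at 27.5 and 24.6 RPKM. Cd74 overlapped too, at 544 and 585 RPKM and at 388 and 830.5 RPKM. The 2 higher were the costimulatory receptor gene Cd40, at 10.9 and 0.0143 RPKM and at 28.3 and 15.4 RPKM, and the protease gene Ctss, at 110.2 and 102.5 RPKM and at 177 and 151 RPKM. Cell cycle (13 tested), glycolysis (16), antioxidant (19), BCL2 family (19), Notch (12) and interferon response genes (15) had 1 to 6 members higher and 2 to 5 lower without overlap.

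**Figure D5:**
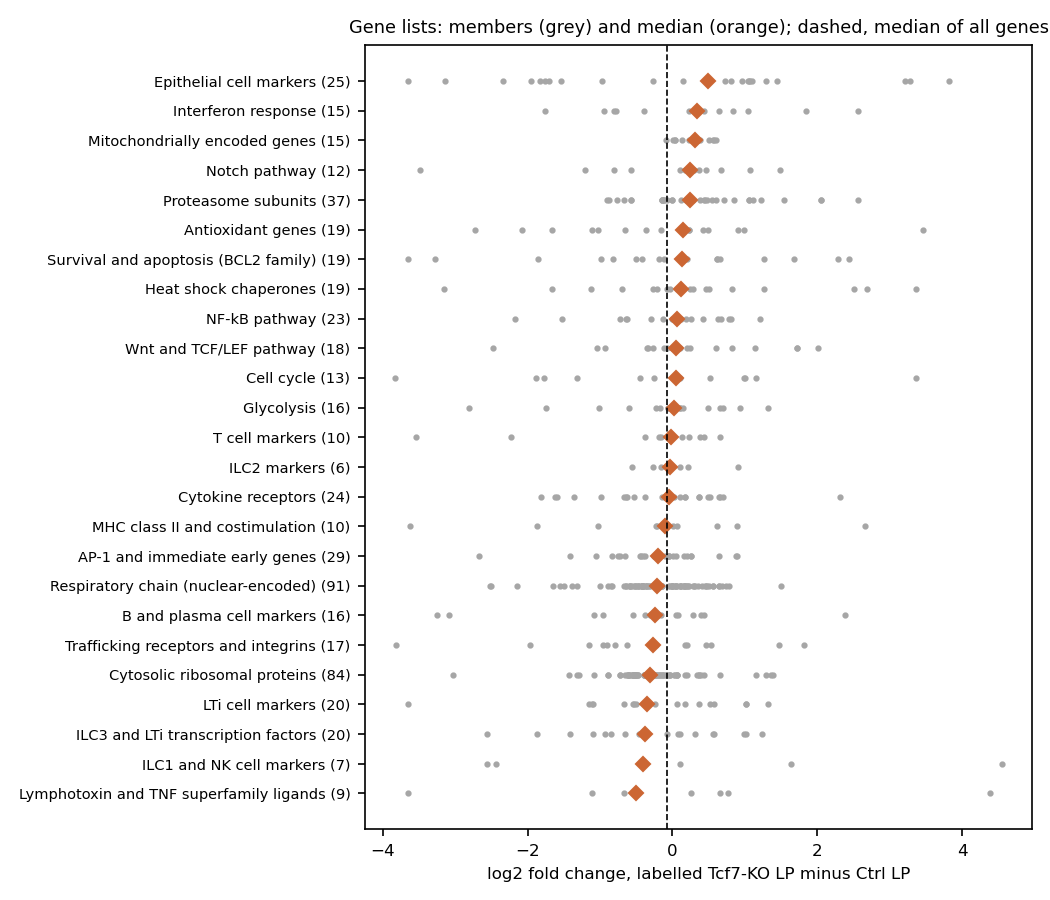
Log2 fold change (labelled Tcf7-KO minus Ctrl, LP) of each tested member (grey points) and the list median (orange diamonds) for the lists with at least 5 tested members, whose number stands in brackets; the dashed line is the median of all 8767 genes, -0.07. Members of most lists spread to both sides of the line, while 14 of the 15 mitochondrially encoded genes lie above 0.

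Markers of other cell types were present at levels that varied by library. The 30 epithelial markers summed to 603 and 1531 RPKM in Ctrl and to 1007 and 1994 RPKM in labelled Tcf7-KO. Of 25 tested, 4 lay higher and 4 lower without overlap (16% each), against 15.8% and 20.1% of all genes. Agr2, a goblet cell gene, stood at 0.513 and 116 RPKM and at 107 and 141 RPKM, and Epcam at 14.02 and 45.5 RPKM and at 18.4 and 23.9 RPKM. The 23 myeloid markers summed to 96.0 and 78.1 RPKM and to 203 and 124 RPKM, with Cd14 at 10.6 and 0.0511 RPKM and at 90.5 and 32.5 RPKM, and with C1qa, C1qb, C1qc, S100a8 and S100a9 at 0 in all 4 libraries. Stromal and endothelial markers summed to 46.6 and 28.2 RPKM and to 50.9 and 64.5 RPKM. The 14 ILC2 markers summed to 1112 and 1067 RPKM and to 1007 and 1206 RPKM, most of it from Arg1 (760 and 749 RPKM and 637 and 722 RPKM), and the 17 ILC1 and NK cell markers to 611 and 659 RPKM and to 662 and 659 RPKM. The part of these cells in the differences described was not tested.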

How the data were processed

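Total RNA of sorted LTi cells was extracted with a micro-scale kit and made into libraries with Smart-seq2, which amplifies cDNA by PCR, per the labels' protocols. The authors deposited 1 log2 value per gene and library, which the file describes as RPKM. Per the submitters' processing notes, the genome was mm10 and featureCounts of Subread did the counting. Aligner, versions, gene annotation and strandedness: not given in the sources used here. As deposited, the log2 values were log2(RPKM + 1) with 0.0001 added: undoing this gave whole reads in every library for 13195 of 13195 genes above 0 in at least 3 libraries (100.0%, tolerance 0.001 reads), and with it the read totals. The labels name no molecular identifiers, so PCR copies may count as separate reads. Without known strand counting, reads of overlapping genes cannot be told apart.

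Symbols and positions were matched by Entrez identifier to RefSeq (GRCm38.p6, the assembly of mm10) for 25275 of 27179 genes. Groups came from the labels. Genes that reached 1 RPKM in 2 or more LP libraries were fitted as log2(RPKM + 1), a pseudocount of 1 that understates changes of low genes, with limma 3.58.1 in R 4.3.3 (lmFit, then eBayes with a trend), as 4 group means over all 8 libraries with 4 residual degrees of freedom. Tests were two-sided with Benjamini-Hochberg adjustment over all 8767 genes at 0.05. The fit was tested on simulated data.

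Members, gene lists and the rule for named genes were chosen with earlier results of these data known. The rule took every passing gene, the 12 genes per direction with the smallest p among those at 10 RPKM or more in all 4 libraries, the 8 per direction that were near absent in 1 group (both sets without immunoglobulin and T cell receptor segments, predicted genes and genes with no symbol), up to 4 members per list and a set of LTi genes. Ighv5-4, Ighv1-15, the antibody constant genes, Junb, mt-Rnr2, Ctnnb1, Znrf3, Axin2, Ccnd2, Ctss and the marker genes given without a test were chosen after their values were seen. The results of some list members are not reported here. Lists were described by counts and medians with no test. Alternatives changed the pseudocount, filter, scaling, genes and samples fitted, spread model and block, and left out each library.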

Additional observations from a re-analysis of the deposited data

Results flagged for a closer look

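In 3 genes the genotype effect in LP differed from that in PP by the test of the difference itself (LP minus PP on the log2 scale, limma adjusted p under 0.05). The values were 5.77 for the V segment Ighv1-26, -7.01 for the joining segment Igkj4 and -1.64 for mt-Cytb. Ighv1-26 was lower in both tissues and more so in PP, while Igkj4 was lower in LP and higher in PP, and mt-Cytb was higher in both and more so in PP. Groups of 2 libraries were too small for a search for single outlying samples.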

How the results depend on the processing

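The count of 3 genes for genotype in LP and that of 3 for the difference between LP and PP depended on the processing. With no filter on low values the counts were 56 (12 of them higher) and 36, and with a pseudocount of 5 they were 5 (1 higher) and 12. With immunoglobulin and mitochondrially encoded genes not tested, both were 0, since all passing genes belong to these classes, and with voom on recovered reads, an alternative chosen after seeing the data, both were 0. Without the trend of the spread they were 2 and 0. Leaving out 1 library gave 0 to 4 and 0 to 7. The labels do not say whether the replicate numbers pair samples. Replicate differences of Ctrl LP and labelled Tcf7-KO LP correlated at 0.0129 over 8767 genes. With 1 difference per group, this value cannot decide whether samples were paired. With a replicate block, which leaves fewer degrees of freedom, both counts were 0. The causes were not tested. Under the other filters, scalings and pseudocount, and with only the LP libraries fitted, the LP count was 3, with 2 of the 3 genes shared in the last.

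After median-of-ratios rescaling Tcf7 turned to 0.145 and Arg1 to 0.067, and the medians of AP-1, respiratory chain, MHC class II and costimulation (0.11), cytokine receptor (0.17), T cell (0.19) and ILC2 (0.15) lists changed sign with that of all genes. Leaving out 1 library moved the fold change of 19 of 90 named genes by over 1.5 times, with log2 values of -4.94 to -2.70 for Cxcr3, -3.52 to -1.83 for Fosl1, 1.497 to 3.51 for Hspa1a, 2.26 to 5.72 for Cd14, 1.17 to 3.95 for Psmb9, -3.25 to -0.491 for H2-Ab1, -5.51 to -1.73 for H2-Oa, 0.886 to 4.43 for Cd40, -6.16 to -0.36 for Iglc1, 0.083 to 6.35 for Agr2, -1.90 to -0.293 for Ahr and 0.153 to 1.37 for Tnf. It turned 8 of the 90, with log2 fold changes of -1.04 to 0.043 for Ltb, -2.64 to 0.408 for Lta, -1.29 to 0.228 for Il23r, -0.931 to 0.171 for Kit, -0.414 to 1.14 for Il1r1, -0.924 to 0.155 for Tox, -1.18 to 2.81 for Lef1 and -0.313 to 0.513 for Gata3. Igkv12-44, Il17a and Tbx21, whose ranges stand with their results, Lta, Il23r, Il1r1 and Lef1 complete the 19.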
